A study of Homo sapiens with 6 samples.

Results

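The T-box genes encode transcription factors that share a DNA-binding domain, the T-box, and 10 of them are the subject here: TBX2, TBX4, TBX3, TBX5, TBX15, TBX20, TBX1, TBR1, EOMES and T, which RefSeq now names TBXT. Their loci were taken as 8 spans of the hg19 genome, which together measure 1.37 Mb: TBX2 and TBX4 share the span from 59.42 to 59.61 Mb of chromosome 17, TBX3 and TBX5 that from 114.74 to 115.17 Mb of chromosome 12, and the other 6 genes have a span each. These lie at 119.37 to 119.49 Mb of chromosome 1 (TBX15), 35.19 to 35.35 Mb of chromosome 7 (TBX20), 19.69 to 19.82 Mb of chromosome 22 (TBX1), 162.22 to 162.33 Mb of chromosome 2 (TBR1), 27.70 to 27.82 Mb of chromosome 3 (EOMES) and 166.52 to 166.63 Mb of chromosome 6 (T). Peaks of ubiquitylated and of total H2A.Z were merged where they overlapped or touched, and a merged region was assigned to a span when its midpoint lay inside. This gave 227 of the 198179 merged regions of the genome. Gene positions in hg19 were not used here, so a region is placed by its coordinates and its span and is not assigned to a promoter, an exon or an intron. All coordinates of regions are hg19.

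The cells were HEK293T, an established line derived from human embryonic kidney. All cells carried plasmids for H2A.Z-1 fused at its C-terminus to Flag and the biotin ligase BirA, and for ubiquitin with an N-terminal AviTag, the peptide that BirA biotinylates, and were harvested 48 h after transfection. Chromatin cut with micrococcal nuclease was recovered on streptavidin-agarose for ubiquitylated H2A.Z (2 samples), on Flag M2-agarose for total tagged H2A.Z (2 samples), and with an antibody to histone H3 as a control (2 samples). Both H2A.Z pull-downs read transfected, tagged histone, so differences between the reagents and differences in ubiquitylation cannot be told apart, and the labels do not say whether replicates were separate cultures. The peak and region lists carry no column for a single library, so depth is unknown and no value per sample, standard deviation or count model can be given. The spread between the 2 samples of a group enters only through the authors' IDR (irreproducible discovery rate, low where a peak repeats well) and FDR (false discovery rate of a difference).

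H2A.Z, a histone variant that replaces H2A in some nucleosomes, is placed at promoters, enhancers and other regulatory DNA. Its C-terminal tail can carry a single ubiquitin, a mark that is added by the Polycomb repressive complex PRC1 and is associated with silent chromatin, including the inactive X chromosome. T-box genes are developmental regulators that act in restricted tissues of the embryo, and genes of this kind are well-known Polycomb targets in cells that do not use them. TBX2 and TBX3 encode repressors with roles in the heart, limb and mammary gland, TBX5 and TBX4 act in the forelimb and hindlimb and in heart and lung, TBX20 acts in the heart and TBX1 in the pharyngeal arches. TBX15 acts in the skeleton, TBR1 in neurons of the cerebral cortex, EOMES in early mesoderm and endoderm, cortical progenitors and lymphocytes, and T, or brachyury, in mesoderm and the notochord.

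Of the 10 genes, 7 had promoter entries in the RefSeq table, 9 entries in all, each covering 250 bases before and 50 bases after a start. The CpG dinucleotide, the target of DNA methylation, was counted because developmental promoters differ widely in it. Among 35116 promoter entries the median was 14 CpGs. The entry of TBX20 held 38 CpGs, a number reached or passed by 9.91% of all entries, and that of TBR1 held 4, reached or passed by 75.5%. The entries of TBX1 and EOMES lay between, with 22 CpGs (37.7% of entries have as many or more) and 21 CpGs (39.5%). These 4 are shown as the extremes and the middle of the range, with the CpGs in capitals.

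TBX20, chr7:35254051-35254350, reverse strand, GRCh38.p14: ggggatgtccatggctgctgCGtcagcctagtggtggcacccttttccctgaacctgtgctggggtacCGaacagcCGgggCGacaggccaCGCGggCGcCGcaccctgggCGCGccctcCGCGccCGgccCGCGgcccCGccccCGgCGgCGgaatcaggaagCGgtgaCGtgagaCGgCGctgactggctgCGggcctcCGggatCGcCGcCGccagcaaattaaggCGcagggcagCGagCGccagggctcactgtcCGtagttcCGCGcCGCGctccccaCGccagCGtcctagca

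TBX1, chr22:19756453-19756752, forward strand, GRCh38.p14: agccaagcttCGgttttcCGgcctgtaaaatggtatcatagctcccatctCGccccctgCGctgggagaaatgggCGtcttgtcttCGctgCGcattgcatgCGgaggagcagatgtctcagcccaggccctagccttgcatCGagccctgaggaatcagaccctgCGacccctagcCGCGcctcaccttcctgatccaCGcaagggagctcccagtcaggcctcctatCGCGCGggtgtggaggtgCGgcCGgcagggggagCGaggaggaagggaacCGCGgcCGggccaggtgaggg

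EOMES, chr3:27722274-27722573, reverse strand, GRCh38.p14: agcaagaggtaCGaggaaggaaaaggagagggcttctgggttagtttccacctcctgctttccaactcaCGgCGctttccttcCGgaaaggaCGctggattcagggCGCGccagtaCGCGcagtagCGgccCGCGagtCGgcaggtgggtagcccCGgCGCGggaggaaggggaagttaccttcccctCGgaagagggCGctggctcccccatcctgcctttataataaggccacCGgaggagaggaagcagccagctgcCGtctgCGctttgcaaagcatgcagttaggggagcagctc

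TBR1, chr2:161416047-161416346, forward strand, GRCh38.p14: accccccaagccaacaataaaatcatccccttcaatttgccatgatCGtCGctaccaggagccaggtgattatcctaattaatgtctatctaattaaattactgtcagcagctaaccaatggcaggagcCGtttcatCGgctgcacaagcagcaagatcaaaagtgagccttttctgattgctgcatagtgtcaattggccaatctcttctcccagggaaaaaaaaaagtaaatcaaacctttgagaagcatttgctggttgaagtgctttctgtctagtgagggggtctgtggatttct

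Those coordinates belong to another build than the peak lists, and no coordinate was converted. A number that looks alike in both has no meaning, and whether a region covers one of these sequences was not determined.

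H2A.Z was unevenly spread over the 8 loci. The TBX1 span held 55 regions in 130 kb, or 42.3 per 100 kb, and the TBX2 and TBX4 span 51 regions, or 26.8 per 100 kb. The T span had 29 regions (26.4 per 100 kb), the TBX3 and TBX5 span 58 (13.5 per 100 kb) and the EOMES span 15 (12.5 per 100 kb). Few regions lay in the spans of TBX20 (11), TBR1 (5) and TBX15 (3), where the density was 6.88, 4.55 and 2.50 per 100 kb. The regions covered 35.6% of the bases of the TBX1 span, 13.4% of the TBX2 and TBX4 span and 1.10% of the TBX15 span.

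**Figure D1:**
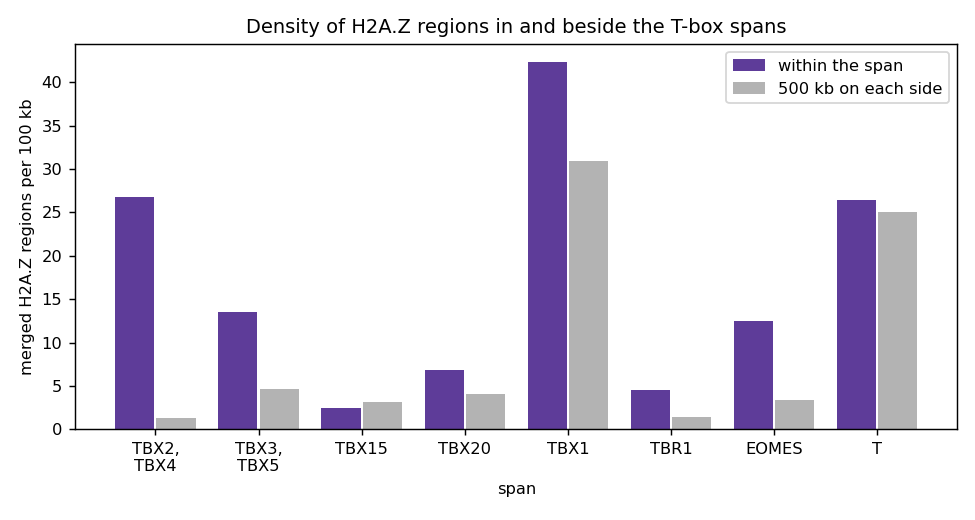
Merged H2A.Z regions per 100 kb (vertical axis) in each span (purple) and in the 500 kb on each side of it (grey). The TBX2 and TBX4 span stands at 26.8 against 1.30 beside it, while the T span, at 26.4 against 25, has about the density of its surroundings.

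The surroundings differed as much as the spans. The spans together held 16.6 regions per 100 kb, and the 500 kb on each side of them 9.22. TBX2 and TBX4 formed an island, with 26.8 regions per 100 kb in the span and 1.30 beside it. The spans of TBX3 and TBX5 (13.5 against 4.60), EOMES (12.5 against 3.40), TBX20 (6.88 against 4.10) and TBR1 (4.55 against 1.40) were also denser than their flanks. The TBX1 and T spans lay in chromatin that was rich in regions on both sides, at 42.3 against 30.9 and 26.4 against 25 per 100 kb. In the RefSeq gene order TBX1 follows SEPTIN5 and GP1BB and precedes GNB1L, and which of these genes a region of the span belongs to was not determined.

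The TBX15 span held fewer regions than its flanks, 2.50 against 3.10 per 100 kb, and was sparse in H2A.Z. Its 3 regions were chr1:119374150-119374592 and chr1:119481715-119481914, with ubiquitylated peaks only, and chr1:119395051-119395730, with peaks of both lists, and none was in a differential list. A cluster of regions lay beyond the upper end of the span instead. In the 100 kb above that end there were 12 regions, with midpoints 32.2 to 85.8 kb beyond it, of which 11 held ubiquitylated peaks only and 1 peaks of both lists. The authors' deposited table places 5 of these 12 (41.7%) higher in ubiquitylated H2A.Z and none higher in total H2A.Z. Genome-wide, calls towards ubiquitylated H2A.Z took 9.39% of all merged regions and 23.8% of those without a total H2A.Z peak. This window was chosen after its values were seen, and the difference from the genome was not tested. The most significant of the 5 in the authors' deposited table was chr1:119550408-119550956 (log2 fold change 0.89, FDR 0.00014). The widest of them, chr1:119530109-119531172 at 1064 bp, is listed in the authors' deposited table with a log2 fold change of 0.75 and an FDR of 0.00027. These regions are outside the rule and are not counted among the 227. The span measures 120 kb and the gene 106 kb in RefSeq, and whether the span contains the start of TBX15 was not determined.

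T-box regions were somewhat wider than the rest and more often carried both forms, in part through the TBX1 span. Their median width was 383 bp (range 144 to 2922 bp), and the median of all merged regions was 313 bp. Regions of at least 500 bp made up 38.8% of T-box regions and 24.0% of all regions. Peaks of both lists were present in 127 of the 227 regions (55.9%), ubiquitylated peaks alone in 58 (25.6%) and total H2A.Z peaks alone in 42 (18.5%). These classes took 49.5%, 26.3% and 24.3% of the 738 regions in the flanks, and 41.9%, 28.9% and 29.2% of all merged regions. The TBX1 span had peaks of both lists in 69.1% of its regions and gave 32 of the 88 T-box regions of at least 500 bp. Without it, 89 of 172 T-box regions (51.7%) had peaks of both lists, and the median width was 361 bp. The flanks of all spans had 49.5% and 322.5 bp, but these values still include the flanks of TBX1. The TBX1 flanks alone had 57.6% and 405 bp, so the flank values are no matched comparison for the spans without TBX1. In the T-box regions with both forms, the ubiquitylated peak had the lower IDR in 98 of 127 (77.2%), compared with 69.9% of all such regions. The spans held 199 ubiquitylated peaks with a median IDR of 0.000834 and 175 total H2A.Z peaks with a median IDR of 0.00325, against 0.00137 and 0.00335 over the 2 whole lists. The IDR is the authors' value and describes how a peak repeats, not how high it is.

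Taken over all T-box spans together, the balance of calls between the 2 forms lay towards ubiquitylated H2A.Z. The authors' deposited table places 39 of the 227 regions (17.2%) higher in ubiquitylated H2A.Z, where 9.39% of all merged regions were so placed. Higher in total H2A.Z were 18 regions (7.93%), where 12.1% of all merged regions were. The 57 regions called, that is, present in either differential list, were 25.1% of T-box regions, close to the 21.5% of all regions. Of these 57 calls, 68.4% were on the ubiquitylated side (Wilson 95% interval 55.5 to 79.0%, counting error only). The share was 51.5% of 163 calls in the flanks and 43.7% of the 42574 calls in the genome. The TBX1 flanks gave 80 of those 163 calls, with 61.2% on the ubiquitylated side, so the pooled flanks are no matched comparison. Regions of 1 span are neighbours and not independent, so the interval is too narrow, and the difference from the genome was not tested.

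Single spans gave much of this balance. TBX3 and TBX5 gave 14 of the 39 regions higher in ubiquitylated H2A.Z, TBX1 gave 10 and TBX2 and TBX4 gave 9. The other spans had few calls: T had 2 of 3 on that side, EOMES 2 of 5, TBX20 and TBR1 1 of 2 each, and TBX15 had no call. With the TBX3 and TBX5 span left out, 25 regions remained on the ubiquitylated and 15 on the total H2A.Z side. With the TBX1 span left out as well, the ubiquitylated side held 55.6% of calls. Width moved with the call too. Among regions of at least 500 bp, 24 of 88 T-box regions (27.3%) were higher in ubiquitylated H2A.Z against 19.8% of all such regions, and 11 (12.5%) were higher in total H2A.Z against 15.3%. The part that width has in the balance was not tested further.

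**Figure D2:**
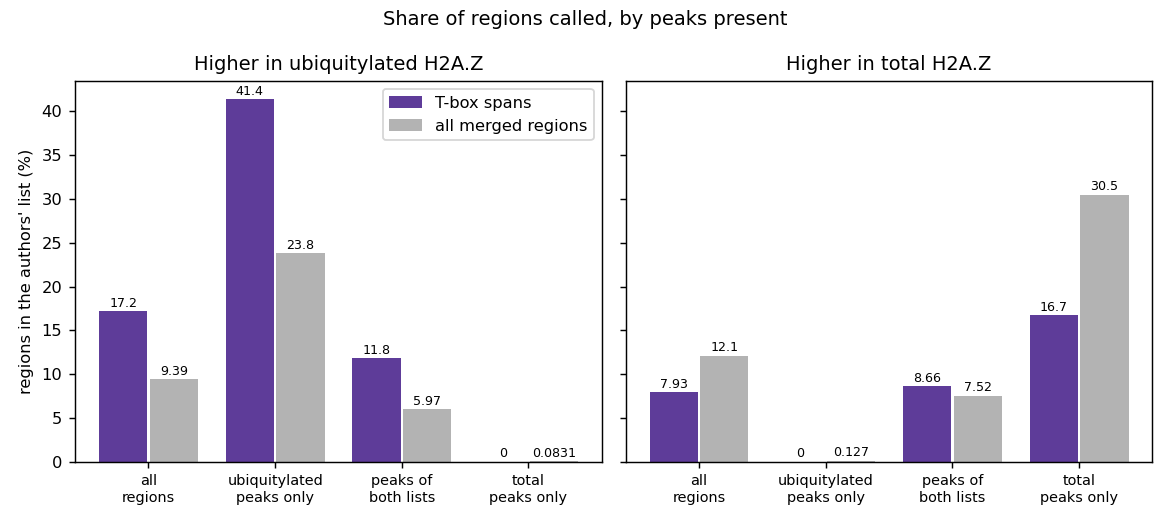
Share of regions (vertical axis, percent) that the authors' lists place higher in ubiquitylated H2A.Z (left panel) or higher in total H2A.Z (right panel), for T-box spans (purple) and all merged regions (grey), by the peaks a region holds. Ubiquitylated-only T-box regions were called at 41.4% against 23.8%, and total-only T-box regions at 16.7% against 30.5%.

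In regions with peaks of 1 list the direction of a call nearly always followed that list, so what could differ was the share called. Over the genome, regions with ubiquitylated peaks alone had 13604 calls towards ubiquitylated and 73 towards total H2A.Z. Those with total peaks alone had 48 and 17634. The 58 T-box regions with ubiquitylated peaks alone included 24 (41.4%) on the ubiquitylated side, beside 23.8% of such regions in the genome. The 42 regions with total peaks alone included 7 (16.7%) on the total H2A.Z side, beside 30.5%. Among the 127 regions with both forms, 15 (11.8%) were higher in ubiquitylated H2A.Z, beside 5.97%, and 11 (8.66%) were higher in total H2A.Z, beside 7.52%. In both classes with ubiquitylated peaks the share higher in ubiquitylated H2A.Z was above that of the genome. The share higher in total H2A.Z was near the genome's in regions with both forms and below it in regions with total peaks alone.

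Changes were of ordinary size towards ubiquitylated H2A.Z and smaller than in the genome towards total H2A.Z. For the 39 T-box regions called towards ubiquitylated H2A.Z, the median log2 fold change taken from the authors' deposited table was 0.69, with quartiles of 0.57 and 0.80 and extremes of 0.33 and 1.31, and the median over all calls in that direction was 0.68. The 18 calls of the opposite direction had a median of -0.53 in the authors' deposited table (quartiles -0.77 and -0.50, range -1.08 to -0.37), a smaller change than the -0.76 of all regions in that direction. A change of at least 2-fold is listed in the authors' deposited table for 3 T-box regions towards ubiquitylated H2A.Z (genome 1.47% of regions) and 2 towards total H2A.Z (genome 2.39%). Those 5 regions lay in the spans of TBX2 and TBX4, TBX3 and TBX5, TBX1 and EOMES.

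**Figure D3:**
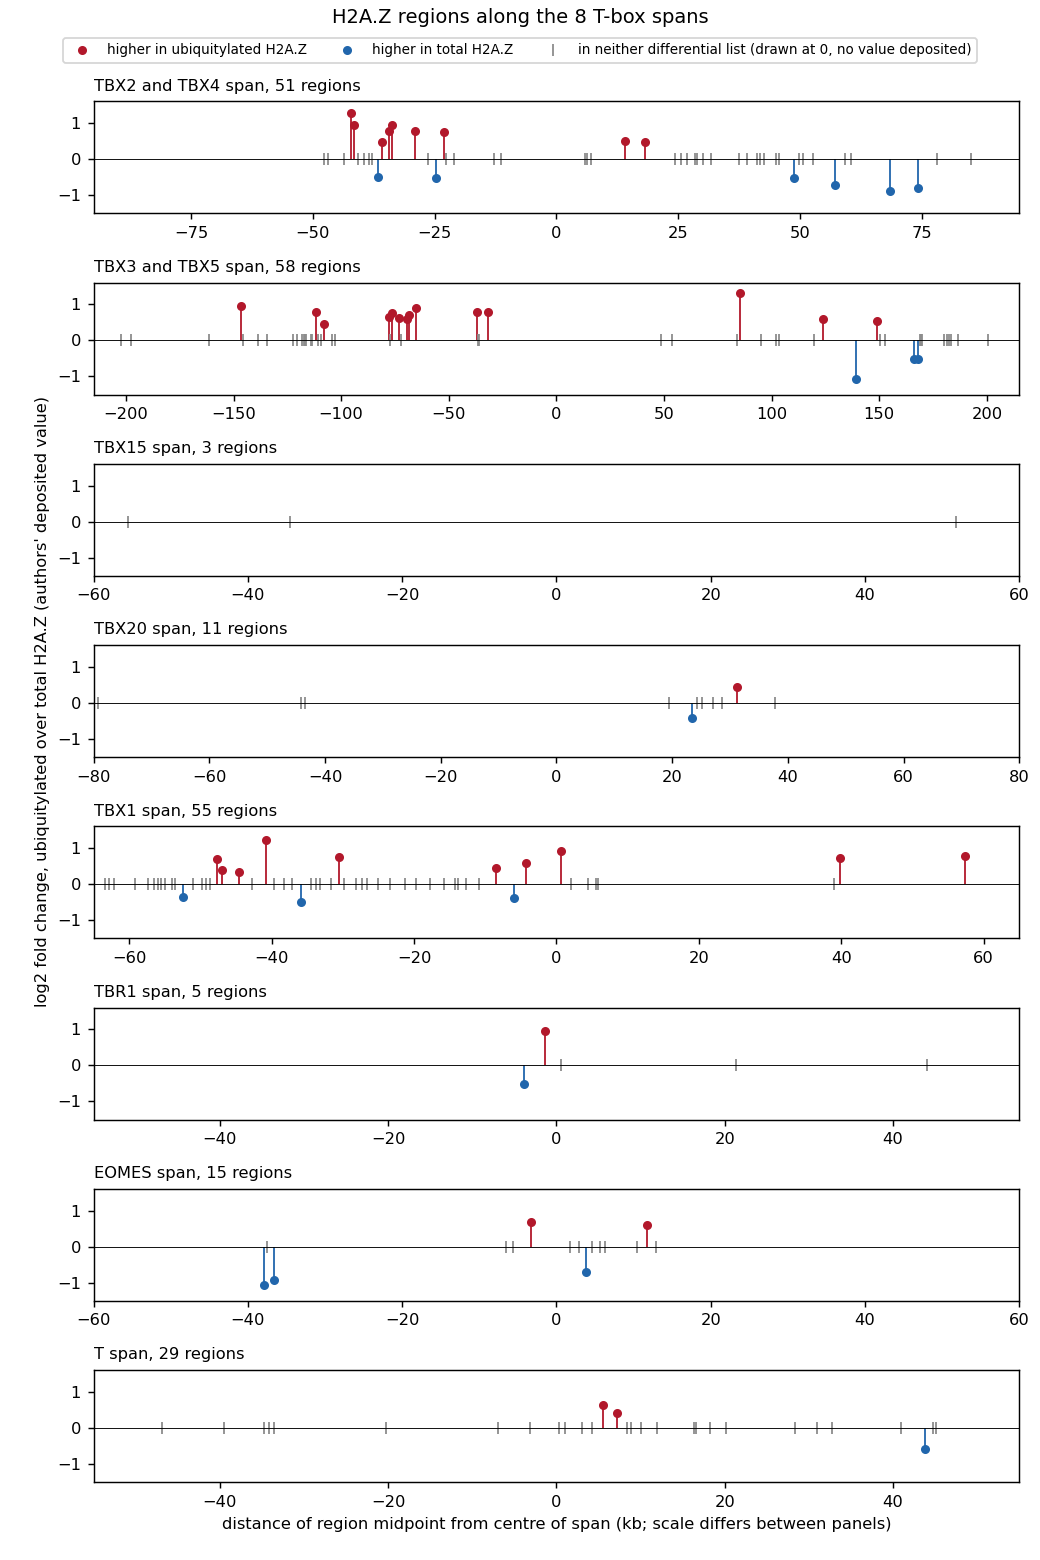
Each panel is 1 span, with the distance of a region's midpoint from the centre of the span in kb on the horizontal axis and the authors' log2 fold change of ubiquitylated over total H2A.Z on the vertical axis. Red points are higher in ubiquitylated H2A.Z and blue points higher in total H2A.Z. Grey ticks drawn at 0 are regions in neither list, for which the authors' lists give no fold change. Red points cluster left of the centre of the TBX3 and TBX5 panel, and 4 blue points close the right end of the TBX2 and TBX4 panel.

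TBX5 and TBX3 lie near each other on chromosome 12, TBX5 before TBX3 in the RefSeq annotation, and their span was the one with the highest share of calls towards ubiquitylated H2A.Z, 14 of 17 (82.4%, Wilson 59.0 to 93.8%). Chromosome 12 as a whole had 37.2% of its calls on that side. The calls were concentrated between 114.84 and 114.93 Mb, where 10 of 20 regions were higher in ubiquitylated H2A.Z and none was higher in total H2A.Z. Of these 20 regions, 8 held ubiquitylated peaks alone, 12 held peaks of both lists, and no region held total peaks alone. Over the genome, 23.8% of regions with ubiquitylated peaks alone and 5.97% of those with both were higher in ubiquitylated H2A.Z. The borders of this stretch were set after the values were seen, and the difference from the genome was not tested. In this stretch the authors' deposited table has its most significant T-box call on chromosome 12, chr12:114842712-114843953, 1242 bp wide with ubiquitylated peaks only (log2 fold change 0.80, FDR 1.4e-06). Next in order of FDR in the same deposited table of the authors came chr12:114922591-114923459 (0.78, FDR 3.1e-05) and chr12:114878539-114879110 (0.76, FDR 8e-05), both with peaks of both lists, and chr12:114885921-114886746 (0.69, FDR 0.00055).

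Beyond 114.93 Mb the picture changed. No region lay between 114923460 and 115003255, a gap of 79.8 kb. From 114.93 to 115.09 Mb there were 9 regions, of which 2 were called, both higher in ubiquitylated H2A.Z. One of them, chr12:115040375-115040604, a region of 230 bp, has the largest log2 fold change of any T-box region in the authors' deposited table, 1.31 (FDR 0.00063). Among the 5 largest towards ubiquitylated H2A.Z was also chr12:114808318-114808512, of 195 bp, near the start of the span (0.95, FDR 0.025, the authors' deposited table). The last 80 kb, from 115.09 to 115.17 Mb, held all 3 regions of the span that were higher in total H2A.Z and 1 that was higher in ubiquitylated H2A.Z. The authors' deposited table lists these 3 as chr12:115122468-115123554 (log2 fold change -0.52, FDR 0.0021), chr12:115094189-115094349 (-1.08, FDR 0.0087) and chr12:115120613-115121421 (-0.52, FDR 0.013). The widest region of the span, chr12:114833685-114834962 at 1278 bp with peaks of both lists, was in neither differential list. The lowest IDRs were 1e-06 for a ubiquitylated peak in chr12:114739923-114740223 and 0.000138 for a total H2A.Z peak in chr12:115104764-115105593. The borders of these stretches, and of those in the other spans, were set after the values were seen.

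In the span of TBX2 and TBX4 the 2 directions were parted along the chromosome. The order of genes in RefSeq is BCAS3, TBX2, TBX4 and NACA2. The 45 kb at the start of the span held no region. Between 59.465 and 59.505 Mb lay 21 regions, 7 higher in ubiquitylated and 2 higher in total H2A.Z, and between 59.505 and 59.545 Mb 10 regions, 2 higher in ubiquitylated and none higher in total H2A.Z. From 59.545 to 59.61 Mb, 20 regions included none higher in ubiquitylated H2A.Z and 4 higher in total H2A.Z, and 8 of these 20 held total peaks alone. Over all merged regions, 9.39% were higher in ubiquitylated and 12.1% higher in total H2A.Z.

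At the end richer in ubiquitylated calls the authors' deposited table has chr17:59472652-59473119 with a log2 fold change of 1.27 (FDR 7.3e-06), followed by chr17:59485417-59486357 (0.79, FDR 4.4e-05) and chr17:59481144-59481525 (0.95, FDR 0.00035). These 3, and chr17:59473250-59473614 (log2 fold change 0.95, FDR 0.0023 in the authors' deposited table), held ubiquitylated peaks only. The calls towards total H2A.Z of lowest FDR in the authors' deposited table were chr17:59563281-59564227 (-0.53, FDR 0.002), chr17:59572067-59572326 (-0.72, FDR 0.0054), chr17:59489974-59490692 (-0.51, FDR 0.0075) and chr17:59589112-59589314 (-0.79, FDR 0.012). The third of these stood among the regions higher in ubiquitylated H2A.Z. A region of the same direction and larger fold, chr17:59583357-59583530, had -0.88 with an FDR of 0.033 in the authors' deposited table. The widest region, chr17:59487565-59489882 at 2318 bp, contained 1 ubiquitylated and 2 total H2A.Z peaks and was in neither differential list. The best-repeated peaks of the span were a ubiquitylated one in chr17:59543729-59544110 (IDR 6.58e-06) and a total H2A.Z one in chr17:59489974-59490692 (IDR 3.23e-05).

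TBX20 had 11 regions, 8 of them between 35.288 and 35.35 Mb. In the authors' deposited table the widest, chr7:35300682-35301953 at 1272 bp with ubiquitylated peaks only, was higher in ubiquitylated H2A.Z (0.45, FDR 0.012), and chr7:35292973-35293729, which also held the total H2A.Z peak of lowest IDR in the span (1.53e-05), was higher in total H2A.Z (-0.41, FDR 0.02). The region next to it, chr7:35293875-35294678, had the ubiquitylated peak of lowest IDR, 4.69e-07, and was in neither differential list. The flanks of TBX20 held 8 calls, all towards total H2A.Z.

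The TBX1 span, on chromosome 22, held most of the broadest T-box regions and the single call of lowest FDR. Of its 55 regions 38 had peaks of both lists, 15 ubiquitylated peaks only and 2 total peaks only, and its 13 calls were 10 towards ubiquitylated and 3 towards total H2A.Z. The strongest call was chr22:19713456-19714897, 1442 bp with a ubiquitylated peak only, at a log2 fold change of 1.23 and an FDR of 1.3e-11 in the authors' deposited table. That FDR ranked 114 among the 18614 regions of the genome in this direction. The calls next in FDR in the authors' deposited table were chr22:19724173-19724835 (0.76, FDR 8.5e-05), chr22:19750214-19751458 (0.59, FDR 0.00048) and chr22:19745456-19747525 (0.45, FDR 0.0019). The 3 regions higher in total H2A.Z all had peaks of both lists, and the authors' deposited table gives them as chr22:19718390-19719826 (-0.50, FDR 0.001), chr22:19748652-19749624 (-0.39, FDR 0.041) and chr22:19702059-19702988 (-0.37, FDR 0.046).

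Of the 10 T-box regions of at least 1.5 kb, 9 lay in the TBX1 span, where they were 16.4% of regions against 1.47% of all merged regions. The chromatin around the span was also rich in them: they were 12 of the 212 regions (5.66%) in the 500 kb above it, the widest of which, at 3870 bp, exceeded any in the span. The 500 kb below it had 1 in 97 regions (1.03%), and chromosome 22 as a whole had 2.16%. All 9 had peaks of both forms. The widest, chr22:19708904-19711825 at 2922 bp, ranked 208 by width in the genome and the authors' deposited table lists it towards ubiquitylated H2A.Z, with a small log2 fold change of 0.33 (FDR 0.016). Besides it, chr22:19745456-19747525 was the only other one called. The remaining 7 were in neither differential list. The broadest of these were chr22:19742910-19745322 (2413 bp) and chr22:19732614-19734983 (2370 bp), and the other 5, of 1534 to 1824 bp, were chr22:19694909-19696732, chr22:19696819-19698352, chr22:19715838-19717483, chr22:19730705-19732481 and chr22:19738384-19739941. Peaks here repeated well, and chr22:19707523-19708478 held the ubiquitylated peak of lowest IDR in the span (5.24e-07), and chr22:19717598-19718295 the total H2A.Z peak of lowest IDR (1.9e-06).

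Beyond 19.752 Mb the TBX1 span thinned out. The 8 regions from there to 19.82 Mb all held ubiquitylated peaks alone, and 3 were higher in ubiquitylated H2A.Z, beside 23.8% of such regions in the genome. None was higher in total H2A.Z, which says little, since calls in this class nearly always go towards ubiquitylated H2A.Z. The surroundings of this span differed between its sides. On the upper side, 48 of 62 calls in 500 kb were higher in ubiquitylated H2A.Z (77.4%), close to the 76.9% of the span itself, while on the lower side 1 of 18 was (5.56%).

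EOMES and TBR1, which are related genes of the Tbr1 subfamily, had 15 and 5 regions, with calls in both directions side by side. In the EOMES span the 15 regions fell into a group of 3 below 27.725 Mb, all with total peaks only, and a group of 12 from 27.75 to 27.775 Mb, with a gap of 29.7 kb between them. The authors' deposited table puts 2 of the group of 3 higher in total H2A.Z, chr3:27722001-27722219 (log2 fold change -1.06, FDR 0.0066) and chr3:27723253-27723571 (-0.93, FDR 0.0023). Within the larger group, chr3:27756207-27757098 was higher in ubiquitylated H2A.Z (0.67, FDR 0.00032) and chr3:27763503-27764318, with peaks of both lists as well, was higher in total H2A.Z (-0.70, FDR 3.3e-05) in the authors' deposited table. The region chr3:27763503-27764318 has the lowest FDR of all T-box regions higher in total H2A.Z. The fifth call of the span in the authors' deposited table, chr3:27771404-27772010 with ubiquitylated peaks only, had 0.59 with an FDR of 0.0028.

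In the EOMES span the widest region was chr3:27762346-27763386 at 1041 bp, which held the total H2A.Z peak of lowest IDR (0.000222) and was in neither differential list. The ubiquitylated peak of lowest IDR, 8.45e-05, lay in chr3:27772659-27773162. The 500 kb on each side of the span had 3 calls towards ubiquitylated and 9 towards total H2A.Z.

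The TBR1 span held 2 called regions, which were neighbours with opposite directions. One was chr2:162273210-162274025, 816 bp with ubiquitylated peaks only and the widest of the span, at a log2 fold change of 0.94 and an FDR of 5.2e-06 in the authors' deposited table. The other was chr2:162270817-162271529, with peaks of both lists, which the authors' deposited table gives at -0.51 (FDR 0.0084). The peaks of lowest IDR in both lists (0.000636 ubiquitylated, 0.00477 total) lay in chr2:162318684-162319287, which was in neither differential list. Of the 14 regions in the flanks, none was higher in ubiquitylated and 4 were higher in total H2A.Z.

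The T span had the lowest share of called regions among the spans with more than 3 regions, 3 of 29 (10.3%), beside 21.5% of all merged regions. It also had the narrowest regions, with a median of 239 bp. Of all merged regions under 250 bp, 4.25% were higher in ubiquitylated and 8.89% higher in total H2A.Z. The part of width in the low share was not tested. The authors' deposited table has 2 neighbours with peaks of both lists on the ubiquitylated side, chr6:166579812-166581120 (1309 bp, the widest of the span, log2 fold change 0.64, FDR 0.00026) and chr6:166581765-166582675 (0.42, FDR 0.029). The call towards total H2A.Z was chr6:166618583-166619079, at -0.58 with an FDR of 0.0087 in the authors' deposited table. All 6 regions below 166.56 Mb had peaks of both forms and none was called. The ubiquitylated peak of lowest IDR in any T-box span, 4.13e-07, lay among them in chr6:166539991-166540531, and the total H2A.Z peak of lowest IDR in the T span (0.000469) in chr6:166619966-166620140. Of the 11 regions above 166.59 Mb, 6 held total peaks alone and none held ubiquitylated peaks alone.

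**Figure D4:**
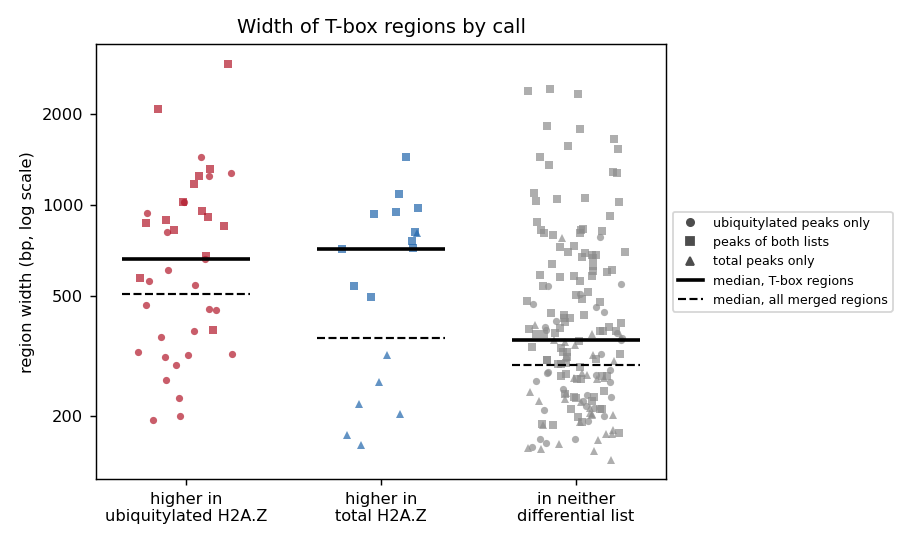
Width of the 227 T-box regions (vertical axis, bp, log scale) by their call, with a point per region shaped by the peaks it holds, a solid line at the T-box median and a dashed line at the median of all merged regions with the same call. Regions higher in ubiquitylated H2A.Z had a median of 663 bp, those higher in total H2A.Z 716 bp and those in neither list 356.5 bp.

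Called T-box regions were wide in both directions. The 39 regions higher in ubiquitylated H2A.Z had a median width of 663 bp, the 18 higher in total H2A.Z 716 bp, and the 170 in neither list 356.5 bp. For all merged regions these medians were 507, 362 and 295 bp. In the plot of widths, the total H2A.Z calls fall into a group of wide regions with peaks of both lists and a group of mostly narrow ones with total peaks alone, of which chr12:115120613-115121421, at 809 bp, is the exception. The part of width in the calls was not tested.

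Neighbouring calls shared a direction in a smaller share of pairs than over the whole genome. Of 50 pairs of adjacent called regions within a span, 31 (62%) had the same direction, compared with 74.2% of 35058 adjacent pairs up to 100 kb apart in the whole genome. The limit of 100 kb was not applied to pairs within a span, so the 2 shares follow unlike rules. The TBX3 and TBX5 span had 13 of 16 such pairs, TBX2 and TBX4 9 of 14, TBX1 7 of 12, EOMES 1 of 4, T 1 of 2, and TBX20 and TBR1 0 of 1 each. The difference from the genome was not tested.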

How the data were processed

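Per the submitters' processing notes, the authors used Bowtie, SAMtools, MACS2, edgeR and the hg19 build, with versions and settings not given in the sources used here. Each H2A.Z pull-down has 1 peak list deposited by the authors with a q-value-like IDR of at most 0.05 per peak (local or global IDR not stated), taken to cover both samples, and differential regions come in 2 lists whose FDR never exceeds 0.05. Their fold changes, as deposited by the authors, were taken as log2 of ubiquitylated over total H2A.Z, the scale of the authors' edgeR. The base, the normalization and the centring are not stated. H3 libraries entered no comparison of their own.

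Starts were raised by 1 base to give 1-based coordinates, and 1 start in scientific notation was read as a whole number. Peaks that overlapped or touched were merged, and all 42574 differential regions matched a merged region exactly. "Called" means present in a differential list. No test was run here: counts, medians and Wilson intervals (95%) describe the regions. The merging and matching were tested on simulated intervals.

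Flanks are the 500 kb on each side of a span. Regions named are, per span, all calls where there were at most 8 and otherwise the 4 of lowest FDR in each direction, the widest region and the peak of lowest IDR in each list; over all spans, the 5 calls of lowest FDR and of largest fold in each direction and regions of at least 1.5 kb. The TBX15 flank regions were chosen after their values were seen. Members, spans and lists were chosen with earlier results of these data known. Alternatives changed span borders, membership, merging, IDR, FDR, fold and overlap. Other T-box genes and distances to gene starts were not analysed here, since they need hg19 gene positions. Promoter sequences are from RefSeq, GRCh38.p14. The work used pandas 2.3.3 and numpy 2.4.6 in Python 3.11.15, with scipy 1.17.1 for intervals and matplotlib 3.10.9 for plots.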

Additional observations from a re-analysis of the deposited data

How the results depend on the processing

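No paired analysis was possible because no list has values of single libraries, and for the same reason no replicate was left out. Distances to gene starts were not run for want of hg19 gene positions. With an FDR of at most 0.01, 24 T-box regions stood on the ubiquitylated and 11 on the total H2A.Z side, and with at least 2-fold changes 3 and 2, since fewer regions qualify. With regions of at least 500 bp alone, an alternative chosen after seeing the data, these were 24 and 11. Leaving out the TBX3 and TBX5 span gave 25 higher in ubiquitylated H2A.Z. The other 77 of 84 alternatives stayed within 1.5 times the count, or within the interval of the share or the median width. They reuse the same regions, and some could change little, as leaving out the TBX15 span removed no call. The lowest share, 55.6%, lay barely above 55.5%, the lower end of the interval. The share of calls higher in ubiquitylated H2A.Z, 68.4%, ran from 55.6% without the TBX1 and the TBX3 and TBX5 spans to 71.4% without the TBX2 and TBX4 span. It was 57.7% in regions with peaks of both lists. Over the genome such regions had 4962 calls towards ubiquitylated and 6253 towards total H2A.Z. Regions of at least 500 bp had 9449 and 7286 over the genome, beside the 24 and 11 of the T-box spans. The settings without both spans and with peaks of both lists were also chosen after seeing the data. Depth is unknown, so regions in neither list may differ by amounts these libraries could not detect.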
